A study of Mus musculus with 12 samples.

Results

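The genes described here are Irgm1, Irgm2, Igtp, Iigp1, Tgtp1 and Tgtp2, 6 of the immunity-related GTPases of the mouse, together with Gvin1, a very large interferon-inducible GTPase. They were found by gene name, and each matched 1 row, so that 7 of the 55487 genes in each table are members. The name immunity-related GTPase holds for 6 of them, and Gvin1 belongs to a separate family of much larger proteins. RNA was sequenced from skin wounds of male C57BL/6JNarl mice aged 6 weeks, which carried 2 punch wounds each on the back. Sham wounds were given 200 µL of 25% Pluronic F127 gel once a day, and CAP-treated wounds were given the same volume with 10 µM capsaicin (CAP), the pungent compound of chili peppers and an agonist of the ion channel TRPV1. Wounds were taken at day 3 or day 6, and each of the 4 groups has 3 libraries. No unwounded or untreated skin was analysed here. The labels and methods do not say whether any libraries share a mouse or pool several, so p-values measure the spread between libraries, which may be smaller than the spread between mice.

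Immunity-related GTPases are made in response to interferons, above all to interferon gamma, and defend cells against parasites and bacteria that live in vacuoles. The effectors, Iigp1, Tgtp1 and Tgtp2, gather on the vacuole membrane and break it open. The regulators, Irgm1, Irgm2 and Igtp (also called Irgm3), stay on the membranes of the cell itself and hold the effectors there in the inactive, GDP-bound state. Macrophages, keratinocytes, fibroblasts and endothelial cells of the skin can all express them once interferon has been sensed. Genes that answer interferon often carry a DNA element named GAS, which serves interferon gamma, or the interferon-stimulated response element (ISRE), which serves type I interferon and also binds IRF1.

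The genes lie in clusters. On GRCm38, Irgm1 (chr11:48861968-48871683), Tgtp1 (chr11:48985327-48994172) and Tgtp2 (chr11:49057194-49064206) share a stretch of chromosome 11 on the reverse strand, and Igtp (chr11:58199556-58207591) and Irgm2 (chr11:58199618-58222782) lie further along it on the forward strand. All 5 are protein-coding in GENCODE M21 with the same coordinates as in the deposited tables. RefSeq promoter windows on GRCm38.p6 were at hand for these 5 of the 7 members, and not for Iigp1 and Gvin1. The stretches just before the annotated start are shown because these genes are known targets of interferon and had the same direction of difference at both days, and the capitals mark each match to the ISRE core GAAANNGAAA or to GAS, TTCNNNGAA.
Irgm1 (chr11:48871428-48871457, reverse strand): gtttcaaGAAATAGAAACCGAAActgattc
Irgm2 (chr11:58214877-58214976, forward strand): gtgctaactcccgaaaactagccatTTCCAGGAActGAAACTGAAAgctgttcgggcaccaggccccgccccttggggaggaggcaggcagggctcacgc
Igtp (chr11:58199456-58199555, forward strand): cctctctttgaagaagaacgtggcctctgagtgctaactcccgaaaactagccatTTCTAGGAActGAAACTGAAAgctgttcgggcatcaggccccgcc
Tgtp1 (chr11:48992259-48992346, reverse strand): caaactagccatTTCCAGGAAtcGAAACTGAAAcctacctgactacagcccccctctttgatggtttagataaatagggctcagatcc
Tgtp2 (chr11:49064213-49064312, reverse strand): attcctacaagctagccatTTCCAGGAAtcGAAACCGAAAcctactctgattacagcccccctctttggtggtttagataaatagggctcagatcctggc

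Both strands were searched over the 250 bases before each start, and the GAS letters read the same on both strands. The ISRE core was found in all 5 windows and in 2.98% of 32851 RefSeq windows. GAS was found in 4 of the 5, all but Irgm1, and in 7.02% of windows. In Igtp, Irgm2, Tgtp1 and Tgtp2 the pair had the same arrangement, with GAS first and the ISRE core 2 bases after it, a layout that 5 of the 32851 windows held (0.0152%). The remaining window with it belongs to Gm12185, a family gene that overlaps Tgtp1 by 223 exon bases. Irgm1 held 2 overlapping ISRE cores, from base -30 to -21 and from base -24 to -15 before the start, and the 30 bases shown for it lie in an exon of a longer GENCODE transcript. The Irgm2 and Tgtp1 stretches lie within an intron of their longer GENCODE gene models, and those of Igtp and Tgtp2 lie before the gene. Lined up at GAS over 61 bases, Igtp and Irgm2 were identical at 60 bases, Tgtp1 and Tgtp2 at 49, and the other pairs at 37 to 41. A match to these letters describes the sequence and does not show that a factor binds there.

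**Figure D1:**
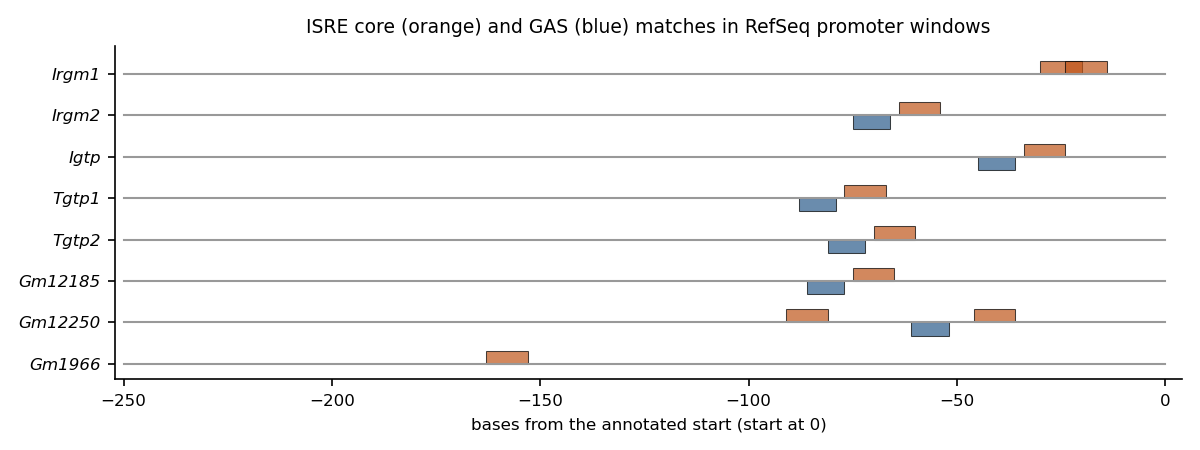
Matches to the ISRE core (orange, above the line) and to GAS (blue, below the line) in the 250 bases before the annotated start of 5 members and 3 other family genes, with the distance from the start in bases on the horizontal axis. Irgm2, Igtp, Tgtp1, Tgtp2 and Gm12185 show GAS just before the ISRE core, Irgm1 shows 2 overlapping ISRE cores, and Gm12250 and Gm1966 have other layouts.

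Outside chromosome 11, Iigp1 (chr18:60376027-60392634) and Gvin1 (chr7:106156556-106215326) are also protein-coding, with the coordinates of GENCODE M21. Members with near-identical copies share reads, and how the authors' quantification divided such reads is not known. Of the 31-base stretches in Gvin1 transcripts, 99.0% also occur in its neighbour Gm4070, and the values of both genes were close in every library. Of those in Tgtp1, 83.2% occur in Tgtp2, and of those in Tgtp2, 89.2% occur in Tgtp1, so the split between them is uncertain and their sum is given too. Igtp and Irgm2 overlap by 162 exon bases on the same strand, and 15.9% of Igtp stretches occur in Irgm2. For Irgm1 and Iigp1 the shared part was 2.2% and 6.9%.

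Values are TPM, a transcript level corrected for gene length and scaled to the same total in each library, and depth is unknown because TPM does not carry it. The markers of keratinocytes and fibroblasts, which define skin, were high in all 12 libraries, with a summed keratinocyte level of 25100 to 99800 TPM. Among the CAP-treated wounds at day 6, replicate 2 stood apart, with 99800 TPM of keratinocyte markers and 357 TPM of neutrophil markers, against 47500 to 66200 TPM and 1310 to 2760 TPM in the others. The threshold was a difference of at least 2-fold together with an unadjusted p under 0.05, from a limma fit on log2(TPM + 0.1), and Benjamini-Hochberg adjusted p-values over all genes tested are given beside it. The exact permutation test over 3 against 3 libraries cannot go below 0.1, and every pair of groups that does not overlap gives that value.

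Irgm1 had the highest level of the 7 in every library and Tgtp1 the lowest. The sum over the 7 genes was 112 to 139 TPM in the 3 sham wounds and 64.8 ± 20.0 TPM (SD, n = 3) in CAP-treated wounds at day 3. At day 6 it was 87.8 ± 8.39 TPM in sham wounds and 60.7 ± 18.6 TPM in CAP-treated wounds. The sums of both groups did not overlap at day 3, with at most 86.5 TPM in CAP-treated wounds, and overlapped at day 6 (78.8 to 95.3 against 46.0 to 81.5 TPM), where CAP replicate 1 reached the range of the sham wounds. Of the sum, Irgm1 made up 26.9% to 37.7%, Irgm2 18.3% to 25.0%, Igtp 14.0% to 18.8% and Iigp1 10.1% to 17.5% across the 12 libraries. The Tgtp shares varied more, from 2.37% to 6.09% for Tgtp2 and from 0.95% to 2.59% for Tgtp1, which had its lowest shares in CAP replicates 2 and 3 of day 3. In a bulk sample, fewer cells of a type and less RNA per cell cannot be told apart.

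**Figure D2:**
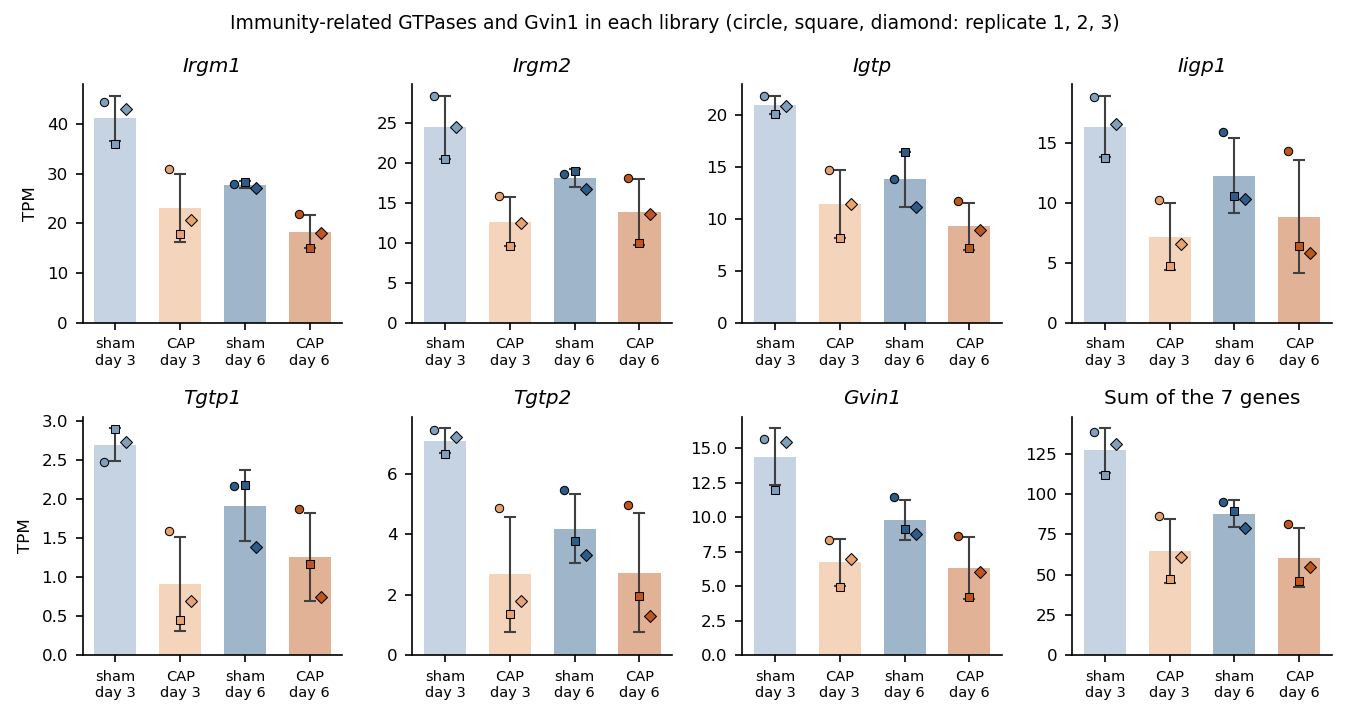
TPM of each gene, and of their sum, in the 12 libraries, with a linear axis from 0. Bars are means, error bars are SD over 3 libraries, and the circle, square and diamond are replicates 1, 2 and 3; the mean of every gene is highest in sham wounds at day 3, and the circle (replicate 1) is the highest of the CAP-treated wounds on both days.

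At day 6 all 7 genes had a lower mean in CAP-treated than in sham wounds, but by less than on day 3. The log2 differences ran from -0.78 to -0.42 with a median of -0.61, beside a median of -0.12 over all 18323 genes tested, of which 65.7% were below 0. No member was past the threshold in limma, with 2.34% of all genes past it in that direction and 1.46% in the other. At an unadjusted p under 0.05, 3 members were lower (Irgm1, Igtp and Gvin1), beside 12.5% of all genes, and none had an adjusted p under 0.05, as for all genes (0.0%). The groups did not overlap for 2 members, Irgm1 and Gvin1, beside 18.0% of all genes lower and 8.01% higher. Leaving out CAP replicate 1 gave 7 members at an unadjusted p under 0.05 and 1 past the threshold, Tgtp2 at -1.31, while leaving out replicate 1 or 2 of the sham wounds, or replicate 2 or 3 of the CAP-treated wounds, left 1 member at that p. Over all genes, the count past the threshold in either direction was 802 without CAP replicate 1 and 697 with every library kept. With median-ratio scaling, which moved the median of all genes to -0.02, the members ran from -0.68 to -0.31 and 1 had an unadjusted p under 0.05.

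Among the regulators, Irgm1 is needed for resistance to mycobacteria and for autophagy of damaged organelles. At day 6 Irgm1 measured 27.9, 28.4 and 27.1 TPM in the 3 sham wounds and 21.9, 15.1 and 18.1 TPM in the CAP-treated wounds. All CAP-treated libraries lay below all sham libraries, and the sham libraries were close together. The log2 difference was -0.61 (SE 0.15, 95% interval -0.97 to -0.26), a 1.53-fold lower level, with limma p = 0.0046, exact permutation p = 0.1 and adjusted p = 0.206, and adjusted values from 0.0803 to 0.470 over the alternatives. Irgm2, which restrains a non-canonical inflammasome, measured 18.6, 19.0 and 16.8 TPM in sham and 18.1, 9.94 and 13.6 TPM in CAP-treated wounds at day 6. CAP replicate 1 lay within the sham range and the other CAP libraries below it, and the log2 difference of -0.42 (SE 0.22) had limma p = 0.0946 and exact permutation p = 0.2. Igtp, which works with Irgm1 and sits on the endoplasmic reticulum and lipid droplets, measured 13.8, 16.4 and 11.1 TPM in sham and 11.7, 7.18 and 8.89 TPM in CAP-treated wounds at day 6. Its groups overlapped by a single CAP library above the lowest sham library, with a log2 difference of -0.58 (SE 0.22), limma p = 0.0364, exact permutation p = 0.2 and adjusted p = 0.241 (0.173 to 0.476 over the alternatives).

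Among the effectors, Iigp1 (also called Irga6) is the best studied. At day 6 Iigp1 measured 15.9, 10.6 and 10.3 TPM in sham and 14.3, 6.41 and 5.85 TPM in CAP-treated wounds. The highest library of each group stood well above the others, and the groups overlapped. The log2 difference was -0.56 (SE 0.36, 95% interval -1.41 to 0.29, limma p = 0.166, exact permutation p = 0.3), and it ran from -0.96 without CAP replicate 1 to -0.32 without CAP replicate 3. Tgtp1, first found as a T cell GTPase, measured 2.17, 2.19 and 1.39 TPM in sham and 1.87, 1.17 and 0.743 TPM in CAP-treated wounds at day 6. For Tgtp2, its near copy, the values were 5.48, 3.77 and 3.33 TPM in sham and 4.97, 1.95 and 1.29 TPM in CAP-treated wounds. In both genes CAP replicate 1 lay inside the sham range and the other CAP libraries lay below it. Their log2 differences were -0.63 (SE 0.38, limma p = 0.14, exact permutation p = 0.2) and -0.78 (SE 0.48, limma p = 0.144, exact permutation p = 0.3). The sum of the pair gave -0.75 (SE 0.43, 95% interval -1.77 to 0.27, limma adjusted p = 0.362).

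Gvin1, whose function is not established, measured 11.5, 9.15 and 8.81 TPM in sham and 8.67, 4.21 and 6.05 TPM in CAP-treated wounds at day 6. The highest CAP library and the lowest sham library were close, so the groups were separated by a narrow gap. The log2 difference was -0.68 (SE 0.27), with limma p = 0.0403, exact permutation p = 0.1 and adjusted p = 0.245 (0.163 to 0.491 over the alternatives). Gm4070, which shares nearly all of its sequence, had the same difference of -0.68 with limma adjusted p = 0.243.

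Marker genes of other cells moved with treatment at day 6. The summed level of 8 keratinocyte markers was 47500 to 99800 TPM in CAP-treated and 26400 to 30300 TPM in sham wounds. Of the 8 tested, 5 were higher at an unadjusted limma p under 0.05, beside 6.67% of all genes higher and 12.5% lower. Of 11 monocyte and macrophage markers, 4 were lower at that p, with sums of 4180 to 9480 against 7280 to 10300 TPM. All 11 were below 0, beside 65.7% of all genes, with a median of -0.74 on the log2 scale. Of 6 endothelial markers, 3 were lower at that p, with sums of 83.1 to 232 against 269 to 364 TPM. All 7 neutrophil markers tested were below 0, with a median of -1.19 on the log2 scale, and 1 was lower at that p. All 5 adipocyte markers were above 0, and 2 were higher at that p. T and NK cells, the main makers of interferon gamma, had marker sums of 76.6 to 95.8 TPM in CAP-treated and 63.6 to 111 TPM in sham wounds, and 1 of their 11 markers tested was higher and 0 were lower. None of the macrophage, keratinocyte or endothelial markers was listed at 0 in any library, and Ly6g was listed at 0 in CAP replicate 2. The part of these cells in the members' values was not tested. Without CAP replicate 2, which stood apart, all 7 log2 differences stayed below 0, from -0.66 to -0.20.

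At day 3 the same comparison gave wider differences. All 7 members were lower in CAP-treated wounds, from -1.63 to -0.86 with a median of -1.11 on the log2 scale, beside a median of -0.05 over 18330 genes, of which 62.2% were below 0. For all 7 the groups did not overlap, beside 8.75% of all genes lower and 2.86% higher, and all 7 had an unadjusted limma p under 0.05, beside 5.14% lower and 1.46% higher. Past the threshold were 4, beside 1.16% of all genes as lower and 0.426% as higher: Iigp1, Tgtp1, Tgtp2 and Gvin1. The adjusted limma p-values of the 7 were between 0.5 and 0.568, and none was under 0.05, as for all genes in that direction (0.0%; 0.0164% were higher). The regulators were lower by 1.82-fold (Irgm1), 1.94-fold (Irgm2) and 1.88-fold (Igtp) and the Tgtp genes by 3.09-fold (Tgtp1) and 3.01-fold (Tgtp2). The sum of the Tgtp pair differed by -1.63 on the log2 scale (95% interval -2.65 to -0.62).

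Tgtp2 shows the pattern at day 3, with 7.47, 6.66 and 7.22 TPM in sham wounds against 4.87, 1.37 and 1.80 TPM in CAP-treated wounds. CAP replicate 1 was the highest and CAP replicate 2 the lowest of the CAP-treated wounds for each of the 7 genes. Irgm1 measured 44.4, 36.0 and 43.1 TPM in sham and 30.9, 17.8 and 20.7 TPM in CAP-treated wounds. Without CAP replicate 1 all 7 were past the threshold, and Tgtp2 then had an adjusted p under 0.05 (0.0371 in limma, the lowest over the alternatives, which reached 1.0), while without CAP replicate 2 only Tgtp1 and Tgtp2 were, at -1.27 and -1.23. Over all genes, 290 were past the threshold in either direction with every library kept. That count was 510 without CAP replicate 1 and 204 without CAP replicate 2. At day 3, 6 of 11 T and NK cell markers tested were lower at an unadjusted limma p under 0.05, beside 5.14% of all genes. Their sums were 29.9 to 41.8 TPM in CAP-treated and 44.3 to 55.1 TPM in sham wounds, and Cd8b1 was listed at 0 in 2 CAP libraries. Of 11 monocyte and macrophage markers, 3 were lower at that p, Ly6c2 by 5.58-fold and Ccr2 by 2.52-fold, both without overlap, and Fcgr1 by 1.31-fold, with overlap. The list did not move as a whole, with 6 of the 11 below 0 and a median of -0.05 on the log2 scale. Lyz2 (0.64), Cd68 (0.40) and Itgam (0.39) were among those above 0. The sums of the list were 4880 to 10500 TPM in CAP-treated and 4210 to 6020 TPM in sham wounds. Of 7 fibroblast markers, 4 were lower, with sums of 10400 to 15600 TPM in CAP-treated and 14800 to 23100 TPM in sham wounds. Of the 5 erythroid markers tested, all 5 were higher, beside 1.46% of all genes, with sums of 2360 to 2800 against 514 to 753 TPM. Whether these cells had a part in the members' values was not tested.

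The course from day 3 to day 6 was next compared within each treatment, and these comparisons use the same libraries as those above. In sham wounds all 7 genes had a lower mean at day 6, from -0.78 (Tgtp2) to -0.42 (Irgm2) with a median of -0.55 on the log2 scale. Over all 18368 genes tested the median was 0.0, with 49.3% below 0. The days did not overlap for 6 of the 7, all but Iigp1, beside 10.6% of all genes. At an unadjusted limma p under 0.05, 5 were lower (Irgm1, Irgm2, Igtp, Tgtp2 and Gvin1), beside 7.91% of all genes, and none was past the threshold of 2-fold, beside 1.61% as lower and 2.13% as higher. With all 12 libraries in a joint fit, 2 had an unadjusted p under 0.05.

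Irgm1 in sham wounds went from 44.4, 36.0 and 43.1 TPM at day 3 to 27.9, 28.4 and 27.1 TPM at day 6. Every day 6 library lay below every day 3 library by a wide gap. Its log2 difference of -0.56 (SE 0.10, 95% interval -0.80 to -0.32) had limma p = 0.000869, exact permutation p = 0.1 and adjusted p = 0.0435, and it was the only member with an adjusted p under 0.05, beside 1.14% of all genes in that direction. This adjusted p ran from 0.0383 to 0.279 over the alternatives and was not under 0.05 when any of the 6 libraries was left out. Igtp went from 21.8, 20.1 and 20.8 TPM to 13.8, 16.4 and 11.1 TPM, with a log2 difference of -0.62 (SE 0.15), limma p = 0.004, exact permutation p = 0.1 and adjusted p = 0.0889 (0.0591 to 0.307 over the alternatives). Tgtp2 was 1.72-fold lower at day 6 (log2 -0.78, SE 0.20, limma p = 0.0058, exact permutation p = 0.1), and the Tgtp pair summed gave -0.70 (SE 0.18, limma adjusted p = 0.112). Iigp1 was the member whose days overlapped, with 18.8, 13.7 and 16.6 TPM at day 3 and 15.9, 10.6 and 10.3 TPM at day 6 (log2 -0.43, SE 0.20, limma p = 0.0659, exact permutation p = 0.2). Of 11 monocyte and macrophage markers, 3 were lower at day 6 at an unadjusted limma p under 0.05 and 2 were higher, beside 7.91% and 8.05% of all genes. The 3 were Ly6c2 (log2 -2.13, limma adjusted p = 0.0115), Ccr2 (-0.62) and Fcgr1 (-0.43). T and NK cell marker sums were 44.3 to 55.1 TPM at day 3 and 63.6 to 111 TPM at day 6, and most of that step was Cd4, with means of 7.87 and 41.7 TPM. Of the 11 markers tested of that list 2 were higher and 1, Gzmb (-0.57), was lower, while Gzma was at -0.41, Ncr1 at -0.42 and Trac at -0.22. Endothelial marker sums were 108 to 141 TPM at day 3 and 269 to 364 TPM at day 6. The part of these cells in the members' course was not tested.

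In CAP-treated wounds the levels at both days overlapped, with a wide spread between libraries. The log2 differences, day 6 minus day 3, ran from -0.31 (Irgm1) to 0.50 (Tgtp1) with a median of 0.02, beside -0.05 over 18202 genes, and 3 of the 7 were below 0, beside 57.0% of all genes. In limma, 0 members were past the threshold (1.52% of all genes were past it as lower and 1.27% as higher), 0 had an unadjusted p under 0.05 (5.91% and 5.66% of all genes), and 0 had an adjusted one (0.00549% of all genes, as lower). All 7 pairs of days overlapped, while 9.63% of all genes did not overlap and were lower, and 8.05% did not and were higher. The intervals were wide: for Irgm1, from 30.9, 17.8 and 20.7 TPM to 21.9, 15.1 and 18.1 TPM, the 95% interval was -0.87 to 0.26, and for Tgtp2, from 4.87, 1.37 and 1.80 TPM to 4.97, 1.95 and 1.29 TPM, it was -1.45 to 1.5. Iigp1, Irgm2, Tgtp2 and Gvin1 changed sign when a single library was left out. A difference of the size seen in sham wounds lies within the interval of every member, so these libraries do not show that the levels stayed the same. T and NK cell marker sums were 29.9 to 41.8 TPM at day 3 and 76.6 to 95.8 TPM at day 6, and Cd4 had means of 7.3 and 30.4 TPM. Of the 11 tested, 7 were higher at an unadjusted limma p under 0.05. All 7 neutrophil markers tested were below 0 (median -1.8), 3 of them at that p. Of 11 monocyte and macrophage markers, 2 were lower at that p, Itgam (-1.64) and Fcgr1 (-1.03), and 0 higher. Of 8 keratinocyte markers, 4 were higher and 1 lower. The part of these cells in the members' values was not tested here.

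The difference between the 2 effects of CAP was tested directly with an interaction term over all 12 libraries. It was above 0 for all 7 members, from 0.25 (Irgm1) to 1.0 (Tgtp1) with a median of 0.54, which means a smaller deficit at day 6, while over 19046 genes the median was -0.06 and 56.7% were below 0. In limma 0 members were past the threshold, beside 2.07% of all genes past it as higher and 2.54% as lower, and 0 had an unadjusted p under 0.05, beside 5.52% and 5.92%. The values were 0.54 (SE 0.32, limma adjusted p = 0.502) for Irgm2, 0.68 (SE 0.50, adjusted p = 0.583) for Iigp1 and 1.0 (SE 0.59, adjusted p = 0.499) for Tgtp1. Tgtp1 was past the threshold without CAP replicate 1 of day 3 (1.45) and without CAP replicate 3 of day 6 (1.31), and without the former 3 members had an unadjusted p under 0.05. In these fits 1219 and 1636 of all genes were past the threshold, beside 877 with every library kept. The threshold was thus passed by 4 members at day 3 and 0 at day 6, but the change between the days was not larger than the spread between libraries.

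**Figure D3:**
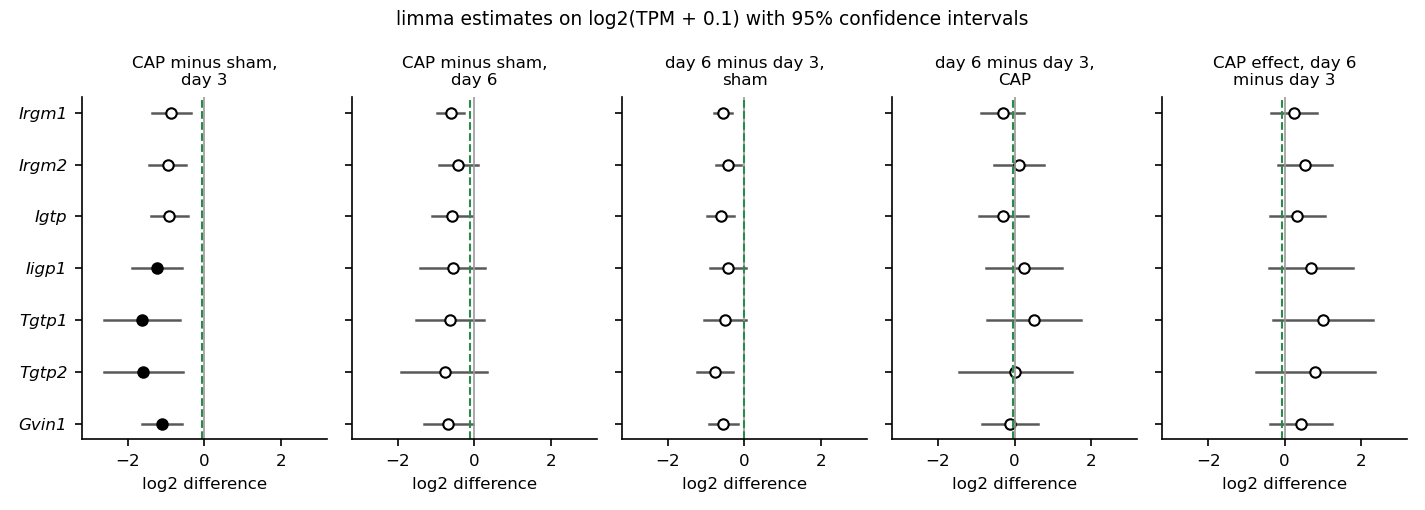
Log2 differences of the 7 genes in 5 comparisons, as limma estimates on log2(TPM + 0.1) with 95% confidence intervals on a linear axis in log2 units. Filled circles are past the threshold, the grey line is 0 and the green dashed line is the median of all genes tested; the 4 filled circles are all in the day 3 comparison, and the intervals for day 6 minus day 3 in CAP-treated wounds all cover 0.

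The wider family was described by a list of 23 symbols, of which 14 were found in the tables and 11 or 12 tested. GENCODE M21 labels Gm12250 a processed pseudogene, Gm8979 and Gm1966 unprocessed pseudogenes and Gm8995 a transcribed unprocessed pseudogene. Gm4070 holds 99.0% of the 31-base stretches of Gvin1, so its values are not separate from those of that member. At day 6 in CAP-treated against sham wounds, 10 of 11 were lower in mean (65.7% of all genes), with a median of -0.36, 0 past the threshold (2.34% of all genes) and 3 at an unadjusted limma p under 0.05 (12.5% of all genes): Gm12250 (also called Irgb10, an effector that acts on bacterial membranes) at -0.63, Gm4070 at -0.68 and Gm8995 at -0.74. This count of 3 became 0 when sham replicate 1 of day 6 was left out, and 1 without either CAP replicate 2 or CAP replicate 3 and with median-ratio scaling. At day 3 all 11 were lower in mean (62.2% of all genes), with a median of -0.87, and 4 were past the threshold (1.16% of all genes): Gm4951 (-1.59), Gm12250 (-1.51), Gm1966 (-1.25) and Gm4070 (-1.10). Gm12250 measured 16.0, 11.4 and 12.4 TPM in sham wounds at day 3 against 9.01, 2.19 and 4.68 TPM in CAP-treated wounds, and 8.2, 9.29 and 6.12 against 6.30, 5.10 and 3.86 TPM at day 6. The groups did not overlap at day 3 and overlapped at day 6 by 1 CAP library. Irgq, a family member without GTPase activity, had 16.2 to 25.2 TPM in all libraries, with log2 differences of -0.05 at day 3 and -0.22 at day 6. In sham wounds 2 family genes were past the threshold as lower at day 6 (1.61% of all genes), F830016B08Rik (-1.87) and Gm4951 (-1.09), and with a pseudocount of 1 TPM 0 were, while without sham replicate 2 of day 6 1 was.

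Of the genes of the interferon signal, the ligands were near the detection limit. Ifng lay between a listed 0 and 0.407 TPM and Ifnb1 was listed at 0 in 11 of 12 libraries, so neither was tested. At day 6, 11 of the 20 genes tested were lower in CAP-treated wounds at an unadjusted limma p under 0.05, beside the 12.5% of all genes, with 0 past the threshold and a median of -0.41. They were the receptor chains Ifngr2, Ifnar1 and Ifnar2, the kinase Jak2, the factors Stat2, Irf1, Irf2, Irf9, Ciita and Batf2, and the feedback inhibitor Socs3. Among sham wounds, leaving out replicate 1 made this count 4, replicate 2 made it 6 and replicate 3 made it 7, while leaving out replicate 2 of the CAP-treated wounds made it 5 and median-ratio scaling made it 7. Irf1, which binds the ISRE, measured 52.5, 50.4 and 42.0 TPM in sham and 26.1, 21.1 and 35.0 TPM in CAP-treated wounds at day 6, without overlap (log2 -0.84, limma adjusted p = 0.206). Stat2 measured 51.1, 47.9 and 39.4 TPM in sham and 36.9, 25.2 and 26.6 TPM in CAP-treated wounds at day 6, also without overlap (log2 -0.65, limma adjusted p = 0.209).

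At day 3, 7 of the 20 were lower at an unadjusted limma p under 0.05 (among them Stat2, Irf1, Irf7 and Ciita), beside 5.14% of all genes, with a median of -0.14, and 1 was past the threshold, beside 1.16% of all genes. It was Irf7, the master factor of the type I interferon response. Irf7 measured 183, 201 and 199 TPM in sham and 98.8, 22.0 and 42.4 TPM in CAP-treated wounds at day 3, and 46.7, 38.8 and 37.9 against 51.2, 35.7 and 22.7 TPM at day 6. The groups were far apart at day 3 and overlapped at day 6. In sham wounds Irf7 was 4.74-fold lower at day 6 than at day 3 (limma adjusted p = 0.00133), a wider step than that of any member, and Stat2 was 1.55-fold lower (limma adjusted p = 0.0417). In CAP-treated wounds 0 of the 20 had an unadjusted limma p under 0.05 between the days, beside 5.91% of all genes as lower and 5.66% as higher. Of the 20, 19 were below 0 there, with a median of -0.23, against 10 and a median of 0.02 in sham wounds. Of all genes, 57.0% were below 0 in CAP-treated wounds and 49.3% in sham wounds, with medians of -0.05 and 0.0. The count of 0 became 3 lower with the replicate block and 2 in the joint fit. It became 1 without CAP replicate 1 of day 6 and 4 without CAP replicate 3 of day 6. The receptor chains Ifngr1, Ifngr2, Ifnar1 and Ifnar2 had log2 differences between CAP-treated and sham wounds of -0.04 to 0.04 at day 3 and of -0.65 to -0.24 at day 6.

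The autophagy conjugation genes, whose products guide these GTPases to vacuole membranes, were near all genes at day 6. Of the 10 tested, 7 were below 0, beside 65.7% of all genes, with a median of -0.08 beside -0.12. At an unadjusted limma p under 0.05, 0 were lower and 2 were higher in CAP-treated wounds, Map1lc3a (0.53) and Gabarapl2 (0.47), with 0 past the threshold. Of all genes, 12.5% were lower and 6.67% higher at that p. Map1lc3a measured 116, 119 and 88.4 TPM in sham and 151, 199 and 123 TPM in CAP-treated wounds, without overlap. At day 3, 0 of the 10 had an unadjusted limma p under 0.05. Without CAP replicate 3 of day 6, 4 of the 10 were lower and 2 higher. The count of 2 higher became 0 without sham replicate 1 and 1 without any single one of the remaining 4 libraries of day 6.

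**Figure D4:**
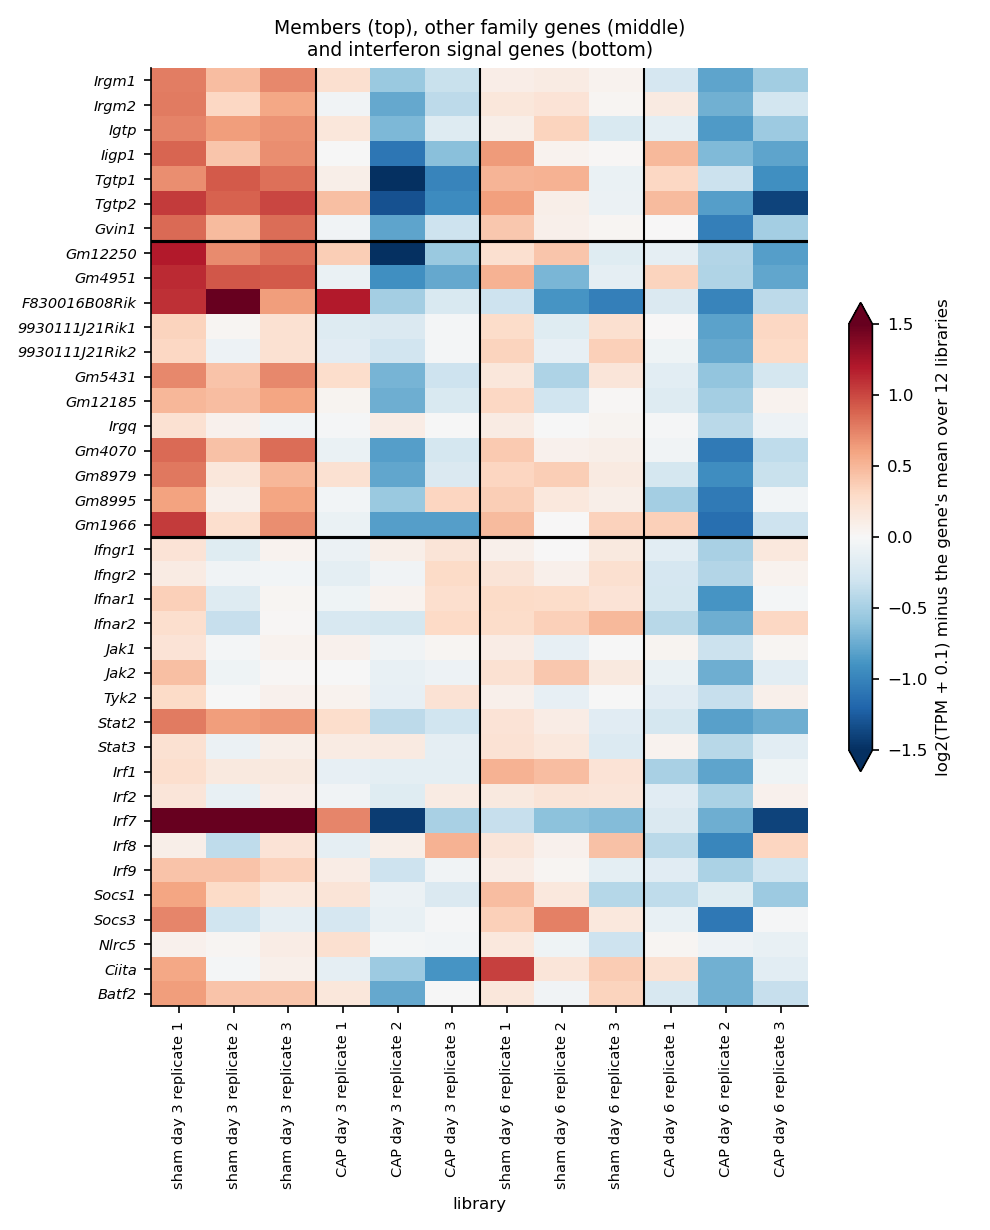
Heat map of log2(TPM + 0.1) minus each gene's mean over the 12 libraries, in log2 units, for the 7 members (top), other family genes (middle) and the interferon signal genes reported here (bottom) whose mean reached 0.3 TPM, in columns of 3 libraries per group. The members are red in all 3 sham wounds of day 3 and blue in CAP replicate 2 of both days, and Irf7 has the widest range of the signal genes.

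To find genes with a like pattern, log2(TPM + 0.1) of 19046 genes was correlated with the mean z-score of the 7 members over the 12 libraries, as a description, since group means and library make-up are shared by all points. The members themselves had r from 0.925 (Tgtp1) to 0.974 (Gvin1), which is high in part by construction, since each is included in that mean. The 10 other genes with the highest r were Oas2 (0.979), Ifi44, Gbp3 (0.961), Gm4070 (0.954), Ly6e (0.952), Trim30c (0.951), Zbp1 (0.948), Tap1 (0.946), Gm12250 (0.944) and Ddx58 (0.941). Oas2, which makes the activator of RNase L, had mean levels of 46.8 TPM in sham and 15.9 TPM in CAP-treated wounds at day 3, and 21.2 and 11.9 TPM at day 6. For Gbp3, a guanylate binding protein, they were 29.1 and 11.6 TPM at day 3 and 18.5 and 13.3 TPM at day 6. Among the signal genes, r was 0.928 for Stat2, 0.915 for Irf9, 0.857 for Irf7 and 0.592 for Irf1. The list did not follow the members as a whole. For the receptor chains r ran from 0.157 (Ifngr1) to 0.383 (Ifnar1), and for Irf8 it was 0.078.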

How the data were processed

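The authors sequenced 12 SureSelect XT HS2 mRNA libraries of wound RNA. Per the labels, reads were converted with bcl2fastq, trimmed with Trimmomatic 0.36 and set against mm10; the methods also name StringTie. Aligner, annotation release and strand setting: not given in the sources used here. The authors deposited TPM of 55487 genes per library, with 0.0001 in place of 0.

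The analysis used log2(TPM + 0.1) and limma 3.58.1 in R 4.3.3 (eBayes with trend), with Benjamini-Hochberg adjustment over the genes whose mean reached 0.3 TPM in each group compared (over all 12 libraries for the interaction), which all 7 members passed. The threshold was an unadjusted p under 0.05 and 2-fold. Exact 2-sided permutation tests used 3 against 3 libraries. The fit was tested on simulated data. All 7 members, the list genes a sentence is about, and the 10 genes most like the members' mean z-score are named. In the interferon signal list, 1 gene enters the counts but is not named or shown. Members and lists were chosen with earlier results of these data known.

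Alternatives were a pseudocount of 1 TPM, no filter, median-ratio scaling, a replicate block, Tgtp1 and Tgtp2 summed, a joint fit, and leaving out each library. Shared sequence was counted as 31-base stretches of GENCODE M21 transcripts. Promoters came from RefSeq (GRCm38.p6). Tables and figures were made in Python 3.11.15.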

Additional observations from a re-analysis of the deposited data

Results flagged for a closer look

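Among the list genes, the effect of CAP differed between the days past the threshold for 2 in the limma interaction term, a threshold that 2.07% of all genes passed as higher. Irf7 differed by 1.86 on the log2 scale (SE 0.62, 95% interval 0.49 to 3.23, limma adjusted p = 0.423), from a difference of -2.10 at day 3 to -0.24 at day 6. Gm4951, a family gene near Iigp1, differed by 1.39 (SE 0.51, 95% interval 0.26 to 2.52, limma adjusted p = 0.423), from -1.59 to -0.20. It measured 4.24, 3.70 and 3.68 TPM in sham and 1.76, 0.955 and 1.07 TPM in CAP-treated wounds at day 3, and 2.75, 1.14 and 1.71 against 2.41, 1.35 and 1.06 TPM at day 6. Neither passes the adjustment over all 19046 genes, and without sham replicate 2 of day 6, without CAP replicate 1 of day 6 or with a pseudocount of 1 TPM, 0 genes of the wider family were past the threshold.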

How the results depend on the processing

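Over all alternatives 426 of the member values kept their direction and their side of the threshold, 7 passed it anew, 3 no longer passed it, and 9 changed sign. All 9 were in the comparison of days in CAP-treated wounds, when 1 library was left out: Iigp1 at -0.01 and -0.16 (up to 0.53), Irgm2 at -0.06 and -0.10 (up to 0.34), Tgtp2 at -0.33, -0.15 and -0.50 (up to 0.55), and Gvin1 at 0.05 and 0.14 (down to -0.38). The causes were not tested.

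When 1 library was left out, members past the threshold numbered 0 to 1 at day 6, 2 to 7 at day 3 and 0 to 1 for the difference between days. Over all genes, the count in these fits ran from 311 to 1483 at day 6 and from 204 to 510 at day 3. For the difference between days it ran from 543 to 1636. Members at an unadjusted p under 0.05 numbered 1 to 7 at day 6 and 0 to 3 for the difference, and those with an adjusted p under 0.05 numbered 0 to 1 at day 3 and 0 in the sham course. Median-ratio scaling gave 1 member at an unadjusted p under 0.05 at day 6, and the joint fit gave 2 in the sham course. The adjusted call for Irgm1 there was lost (0 members) with no filter, with the joint fit and with the replicate block.

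Same-numbered libraries correlated by -0.107 to 0.2 in their deviations, so the numbers were not taken to pair libraries. At an unadjusted limma p under 0.05, the replicate block gave 4 members at day 6 and 6 in the sham course, against 3 and 5 without it. It gave 1 in the course of CAP-treated wounds and 2 for the difference between days, against 0 in both without it. The block moved no count of members past the threshold. The depth of the libraries is unknown, so counting error could not be given, and 3 libraries per group leave intervals of the log2 difference as wide as -1.45 to 1.5. For all genes, the count past the threshold at day 6 was 697, with 311 without CAP replicate 2, 1483 without CAP replicate 3 and 385 with a pseudocount of 1 TPM.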
